A study of Mus musculus with 8 samples.

Results

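Transcripts of 35 nuclear genes for subunits of respiratory complex III with cytochrome c (10 genes), complex IV (10 genes) and ATP synthase (15 genes) were examined in mouse macrophages. They were taken by symbol (Uqcr, Cyc1 and Cycs; Cox; Atp5) from 20258 named genes in the deposited table, and all 35 were present and above 0 in every library. The cells were bone-marrow derived macrophages of C57BL/6 mice, grown from marrow precursors in culture and sampled after 24 h. The groups were macrophages with bacterial lipopolysaccharide and interferon gamma (LPS plus IFNg, 3 libraries), macrophages with interleukin 4 (IL4, 3 libraries), and unstimulated macrophages (2 libraries). No genotype or allele is named beyond the strain, and whether the replicates are separate animals is not stated. The p-values therefore speak only of the spread among these 8 libraries, which may be technical.

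Complex III passes electrons from ubiquinol to cytochrome c, a small soluble carrier, and complex IV passes them on to oxygen. Both pump protons across the inner mitochondrial membrane. ATP synthase lets the protons flow back through a rotating ring of c subunits in the membrane part, Fo, and uses that rotation to make ATP in its F1 head. IL4-activated macrophages are known for relying on mitochondrial respiration, and macrophages given LPS plus IFNg for relying on glycolysis. Subunits encoded by mitochondrial DNA are not among the 35 genes.

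Each value is the authors' quantile-normalised log2 expression from 3' end sequencing, which reads the end of each polyadenylated transcript, so that a difference of 1 between groups stands for a doubling. Values were not compared between genes, since the level of a gene here also depends on how its 3' end can be mapped. Depth is not given with such values; between 9967 and 11837 genes stood above 0 in a library, with the unstimulated libraries at 11837 and 10888. All 7 macrophage markers checked were above 0 in every library, and their summed log2 level was 72.9 to 73.9 in LPS plus IFNg libraries, 64.5 to 65.8 in IL4 libraries, and 74.8 and 74.1 in unstimulated libraries. The summed log2 level of 7 neutrophil and precursor markers was 15.9 to 19.1 in LPS plus IFNg libraries, 26.2 to 37.0 in IL4 libraries and 39.1 and 39.8 in unstimulated libraries. Of these 7 markers, 5, 4 and 4 were above 0 in LPS plus IFNg libraries, 6 in each IL4 library and 7 in each unstimulated library. Mpo, 1 of the 7, was not above 0 in any of the 3 LPS plus IFNg libraries. The sum over 4 dendritic cell markers was 0 to 3.88 in LPS plus IFNg libraries, 6.89 to 12.2 in IL4 libraries, and 2.03 and 11.6 in unstimulated libraries. That over 5 fibroblast markers was 28.7 to 38.5 in LPS plus IFNg libraries, 28.7 to 32.1 in IL4 libraries, and 33.8 and 32.9 in unstimulated libraries. That over 5 lymphocyte markers was at most 3.84 in LPS plus IFNg libraries, 8.37 in IL4 libraries and 0.838 in unstimulated libraries. The part of these cell types in the differences below was not tested. In such bulk samples fewer cells of a type and less RNA per cell cannot be told apart.

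The comparison of LPS plus IFNg with IL4 sets classical against alternative activation. Of the 35 subunit genes, 9 were lower in LPS plus IFNg macrophages, none rose and 26 did not pass limma's test at an adjusted p of 0.05, although with equal means of ribosomal protein genes none fell (2.09% of all genes did) and 14 rose (40.0%, beside 49.1% of all genes tested). In all, 25.7% of the subunit genes fell, where 6.96% of the 13615 genes tested fell and 5.91% rose, and 11.5% of the 6294 genes whose mean was at least that of the lowest subunit gene. The 9 genes were Atp5g1, Atp5g2, Atp5g3 and Atp5l of ATP synthase, Cox4i1 and Cox5b of complex IV, and Uqcr11, Uqcrb and Uqcrh of complex III. The difference was below 0 for 34 of 35 genes and above 0 for 1 (47.5% and 46.9% of all genes tested). For 18 genes every LPS plus IFNg library lay under every IL4 library (14.8% of all genes tested, 22.3% of those 6294). At an unadjusted p under 0.05, none was higher and 18 were lower (11.6% and 13.9% of all genes tested). Without IL4 replicate 1 only 5 of the 35 fell (Atp5g1, Atp5g2, Atp5g3, Cox5b and Uqcr11). Of all genes, 685 of 13510 fell then, in place of 948 of 13615.

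Set against unstimulated macrophages, the LPS plus IFNg libraries show which subunit transcripts differ under classical activation. Of the 35 genes, 3 fell (Atp5g2, Atp5g3 and Cox4i1), none rose and 32 did not pass in limma, while with ribosomal protein scaling none fell (1.36% of all genes did) and 20 rose (57.1%, beside 39.4% of all genes tested). These 3 are 8.57% of the subunit genes, beside 4.25% of all genes tested that fell (3.72% rose) and 6.94% of the genes at or above the lowest subunit gene's mean. For 13 genes every LPS plus IFNg library lay under both unstimulated libraries (37.1%, beside 20.7% of all genes tested), and for Cycs alone every one lay above them (16.1% of all genes tested). The difference was below 0 for 29 genes and above 0 for 6 (52.1% and 47.9% of all genes tested). At an unadjusted p under 0.05, none was higher and 8 were lower (8.47% and 10.9% of all genes tested). The count of 3 was 1 without LPS plus IFNg replicate 3 or IL4 replicate 1. Of all genes, 439 of 13465 and 491 of 13510 fell then, in place of 579 of 13615. Leaving out either unstimulated library leaves 1 in that group, and fewer of the subunit genes and of all genes fell then.

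Set against the same unstimulated macrophages, the IL4 libraries show the same for alternative activation. None of the 35 genes passed in limma, where 0.514% of all genes tested rose and 0.793% fell. At an unadjusted p under 0.05, 5 of the 35 were higher and none lower (5.53% and 6.57% of all genes tested). The difference was above 0 for 31 of 35 genes and below 0 for 4 (44.6% and 50.8% of all genes tested). For 12 genes every IL4 library lay above both unstimulated libraries. This was so for 11.7% of all genes tested and 16.7% of those at or above the lowest subunit gene's mean. The differences furthest above 0 were those of Atp5g1 (1.38), Atp5c1 (1.27) and Uqcrc1 (1.11), and the furthest below 0 that of Atp5g2 (-0.33). The comparisons share libraries, both stimuli being set against the same 2 unstimulated libraries, so their results are not independent of each other.

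**Figure D1:**
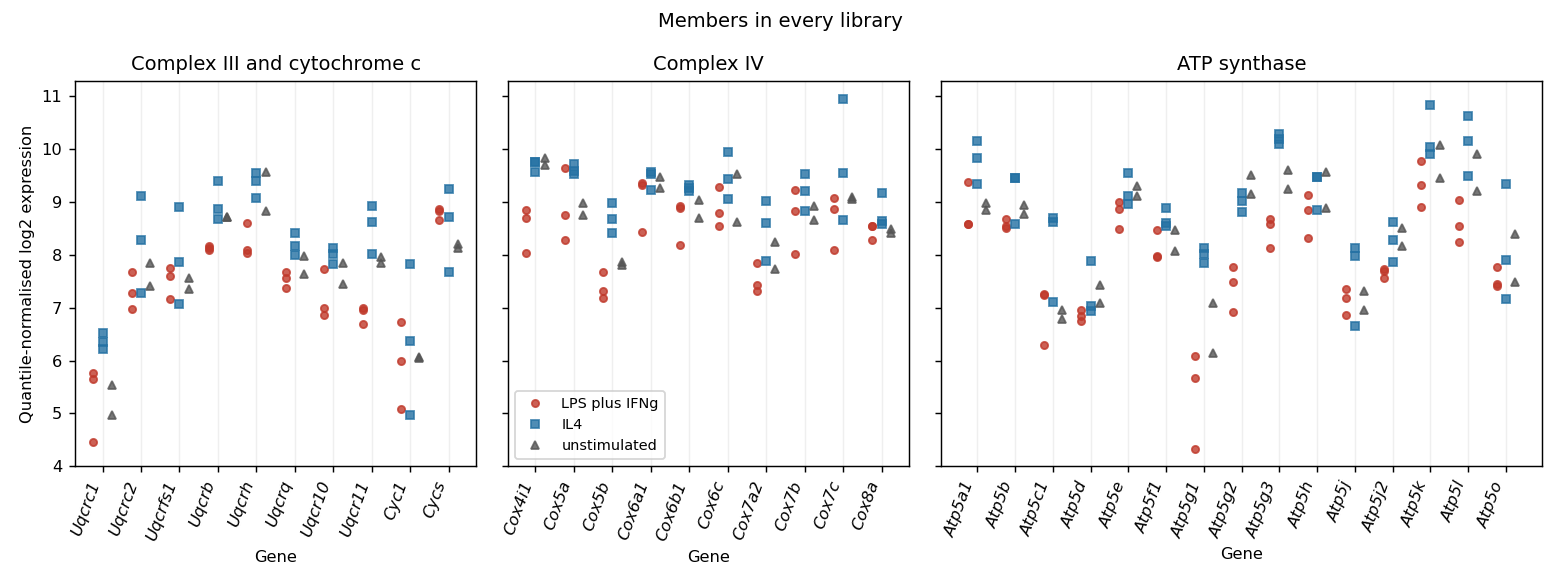
Quantile-normalised log2 expression (y axis) of the 35 subunit genes (x axis) in each of 3 LPS plus IFNg, 3 IL4 and 2 unstimulated libraries; each symbol is 1 library. The LPS plus IFNg libraries lie under both other groups for Atp5g2, Atp5g3 and Cox4i1, while those for Cycs, between 8.65 and 8.86, lie above both unstimulated libraries.

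All 3 genes of the c ring fell against IL4. Atp5g1, Atp5g2 and Atp5g3 encode precursors that are cut to the same c subunit, the proton-carrying part of the ring, so these 3 genes supply 1 subunit. Each fell with LPS plus IFNg against IL4, by 2.63, 1.61 and 1.73 on the log2 scale, and each still fell with housekeeping scaling (adjusted p = 0.0219, 0.0230 and 0.00611 in limma). With ribosomal protein scaling none of the 3 passed (log2 differences -1.15, -0.14 and -0.25).

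Atp5g1 was at 5.68, 6.08 and 4.33 in LPS plus IFNg libraries, 8.01, 8.14 and 7.84 in IL4 libraries, and 6.14 and 7.09 in unstimulated libraries. The 3 groups did not overlap, and the unstimulated libraries lay between the stimuli. Against IL4 its log2 difference with LPS plus IFNg was -2.63 (SE 0.50, adjusted p = 0.0140), a level 6.20-fold lower. Against no stimulus its differences of -1.25 with LPS plus IFNg (SE 0.56, adjusted p = 0.281) and 1.38 with IL4 (SE 0.56, adjusted p = 0.381) did not pass.

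Atp5g2 was at 7.49, 7.77 and 6.92 in LPS plus IFNg libraries, 8.82, 9.02 and 9.18 in IL4 libraries, and 9.15 and 9.51 in unstimulated libraries. IL4 and unstimulated libraries overlapped, and every LPS plus IFNg library was at least 1 unit under them. The log2 difference was -1.94 against no stimulus (SE 0.29, adjusted p = 0.00780), or 3.84-fold lower, and -1.61 against IL4 (SE 0.26, adjusted p = 0.00696). Without unstimulated replicate 2 the comparison with no stimulus did not pass (adjusted p = 0.0749).

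Atp5g3 was at 8.14, 8.57 and 8.68 in LPS plus IFNg libraries, 10.10, 10.19 and 10.28 in IL4 libraries, and 9.24 and 9.60 in unstimulated libraries. As for Atp5g1, the groups did not overlap and the unstimulated libraries lay between the stimuli. Against IL4 the log2 difference was -1.73 (SE 0.20, adjusted p = 0.00187), or 3.31-fold lower. Against no stimulus it was -0.96 (SE 0.22, adjusted p = 0.0426), a call that was lost whichever library was left out (adjusted p from 0.0549 to 0.200). With IL4 the difference from no stimulus was 0.77 (adjusted p = 0.189).

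**Figure D2:**
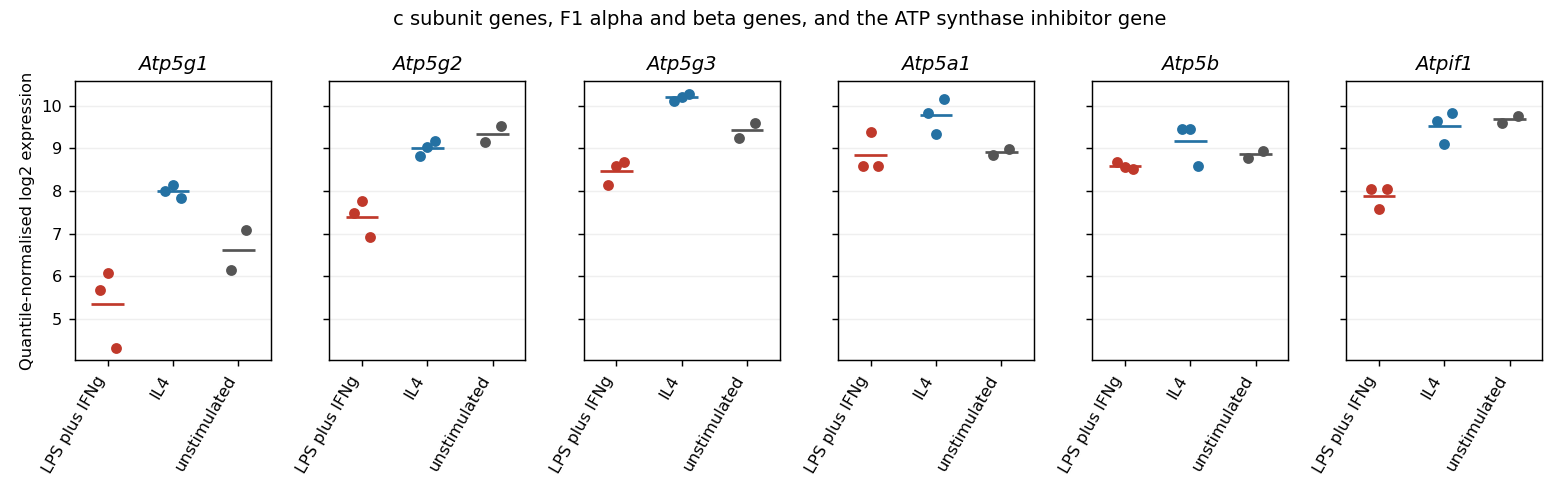
Quantile-normalised log2 expression (y axis) of the c subunit genes Atp5g1, Atp5g2 and Atp5g3, of Atp5a1 and Atp5b, which encode the F1 alpha and beta subunits, and of Atpif1, which encodes an inhibitor of ATP synthase, in LPS plus IFNg, IL4 and unstimulated libraries (x axis). Points are libraries and lines are group means; all 3 c subunit genes have their LPS plus IFNg libraries under both other groups, while those of Atp5a1 (8.57 to 9.38) span the unstimulated values of 8.85 and 8.98.

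The upstream sequences of the 3 c subunit genes are shown because the genes encode 1 protein and fell together against IL4. Each is the 250 bases before the RefSeq transcription start on the minus strand of GRCm38.p6, at chr11:96075632-96075881 for Atp5g1, chr15:102671048-102671297 for Atp5g2 and chr2:73911327-73911576 for Atp5g3; the expression table itself rests on another build. Capitals mark motif matches.
Atp5g1: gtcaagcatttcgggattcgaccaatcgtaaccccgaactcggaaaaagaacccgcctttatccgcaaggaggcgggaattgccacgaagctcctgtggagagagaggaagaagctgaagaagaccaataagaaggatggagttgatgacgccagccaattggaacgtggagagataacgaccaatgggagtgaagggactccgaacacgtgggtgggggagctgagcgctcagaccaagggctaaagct
Atp5g2: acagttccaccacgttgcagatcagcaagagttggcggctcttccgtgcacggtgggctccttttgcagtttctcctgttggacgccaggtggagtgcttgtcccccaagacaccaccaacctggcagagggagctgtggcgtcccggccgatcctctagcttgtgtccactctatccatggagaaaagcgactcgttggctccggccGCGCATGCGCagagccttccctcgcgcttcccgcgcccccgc
Atp5g3: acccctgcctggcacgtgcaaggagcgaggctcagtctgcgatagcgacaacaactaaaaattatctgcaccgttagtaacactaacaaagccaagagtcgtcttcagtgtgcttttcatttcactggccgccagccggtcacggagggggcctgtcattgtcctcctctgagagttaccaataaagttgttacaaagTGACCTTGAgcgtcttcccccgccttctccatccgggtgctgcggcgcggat
The motifs searched on both strands were GCGCA and GCGC parted by any 1 base, bound by NRF1 (nuclear respiratory factor 1, a regulator of respiratory chain genes), CCGGAAG, the core bound by ETS factors such as GABP, AAGATGGC, bound by YY1, TCAAGGTCA, bound by the nuclear receptor ESRRA, and GGGCGG, bound by Sp factors. The capitals in Atp5g2 are an NRF1 match, those in Atp5g3 an ESRRA match on the opposite strand, and in Atp5g1 no motif was found in this window. Sequences were on hand for 27 of the 35 genes. The NRF1 motif was in 5 of these 27 (18.5%) and in 4.23% of 27025 genes of any type, and the ETS core in 8 (29.6%) and 7.83%. The YY1 and ESRRA motifs were in 1 gene each, Atp5j and Atp5g3 (1.83% and 0.422% of all genes), and the Sp motif in 6 (22.2%, beside 35.4%). A match is a run of letters, not a measured binding site.

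The genes of the F1 head did not pass in any of the 3 comparisons. Atp5a1 and Atp5b encode the alpha and beta subunits, which form the catalytic sites, and Atp5c1 encodes the gamma shaft that turns with the c ring. Atp5a1 was at 8.57, 9.38 and 8.58 in LPS plus IFNg libraries, 9.82, 9.34 and 10.16 in IL4 libraries, and 8.85 and 8.98 in unstimulated libraries. LPS plus IFNg libraries spanned the unstimulated ones, with a log2 difference of -0.07 (95% interval -0.85 to 0.71, limma adjusted p = 0.956). Atp5b was at 8.67, 8.55 and 8.51 in LPS plus IFNg libraries, 9.46, 9.45 and 8.59 in IL4 libraries, and 8.77 and 8.94 in unstimulated libraries. Its LPS plus IFNg values lay just under the unstimulated ones, with a log2 difference of -0.28 (95% interval -0.96 to 0.39, limma adjusted p = 0.660). Atp5c1 had the second highest IL4 difference of the ATP synthase genes, 1.27 (SE 0.54, limma adjusted p = 0.412), with IL4 libraries at 8.62, 7.10 and 8.70 and unstimulated libraries at 6.96 and 6.78. With LPS plus IFNg against IL4 the differences were -0.93 for Atp5a1 (95% interval -1.63 to -0.23, adjusted p = 0.0928), -0.59 for Atp5b (-1.19 to 0.02, adjusted p = 0.206) and -1.21 for Atp5c1 (-2.35 to -0.07, adjusted p = 0.173). At an unadjusted p under 0.05 Atp5a1 and Atp5c1 were lower there. Atp5d and Atp5e, for the delta and epsilon subunits of the central stalk, had log2 differences of -0.44 and -0.42 between LPS plus IFNg and IL4, nearest to 0 among the ATP synthase genes.

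Beyond the c ring, Atp5l, which encodes subunit g of the membrane part, fell with LPS plus IFNg against IL4. It was at 8.24, 9.04 and 8.54 in LPS plus IFNg libraries, 10.14, 10.63 and 9.49 in IL4 libraries, and 9.20 and 9.90 in unstimulated libraries. The LPS plus IFNg libraries were the lowest, though 9.04 lay close to the unstimulated 9.20. The difference from IL4 was -1.48 (SE 0.36, adjusted p = 0.0359), and it was lost on leaving out replicate 1 or 3 of LPS plus IFNg, replicate 1 or 2 of IL4, or either unstimulated library (adjusted p up to 0.106). Its partners Atp5k (subunit e) and Atp5j2 (subunit f) had differences of -0.92 and -0.60 from IL4 and did not pass. The genes of the peripheral stalk, which holds F1 still, are Atp5f1 (subunit b), Atp5h (subunit d), Atp5j (coupling factor 6) and Atp5o (OSCP). Their differences ran from -0.60 for Atp5o to -0.46 for Atp5j against IL4, and from -0.46 for Atp5h to -0.01 for Atp5j against no stimulus, and none passed.

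In complex IV, Cox4i1 and Cox5b fell. Cox4i1 encodes subunit IV in its common isoform, a subunit through which ATP is known to inhibit the enzyme. It was at 8.84, 8.03 and 8.70 in LPS plus IFNg libraries, 9.75, 9.76 and 9.56 in IL4 libraries, and 9.83 and 9.70 in unstimulated libraries. IL4 and unstimulated libraries overlapped within a narrow band, and every LPS plus IFNg library lay under it. The log2 difference was -1.24 against no stimulus (SE 0.26, adjusted p = 0.0310), or 2.36-fold lower, and -1.17 against IL4 (SE 0.23, adjusted p = 0.0174). The first was lost on leaving out replicate 3 of LPS plus IFNg, replicate 1 of IL4 or either unstimulated library (adjusted p up to 0.152), and the other did not pass without IL4 replicate 1 (0.0560).

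Cox5b, which encodes a zinc-binding subunit on the matrix side, was at 7.68, 7.32 and 7.18 in LPS plus IFNg libraries, 8.97, 8.42 and 8.68 in IL4 libraries, and 7.86 and 7.80 in unstimulated libraries. The 3 groups did not overlap, with the IL4 libraries set apart above the rest. It fell by 1.29 on the log2 scale against IL4 (SE 0.22, adjusted p = 0.00988), or 2.45-fold lower. With housekeeping scaling that difference was -0.90 and did not pass (limma adjusted p = 0.0716), and with ribosomal protein scaling it was 0.18. Against no stimulus its differences of -0.44 with LPS plus IFNg and 0.86 with IL4 did not pass (limma adjusted p = 0.402 and 0.201). That with IL4 was the highest IL4 difference in complex IV, before that of Cox5a at 0.75, whose IL4 libraries (9.54 to 9.72) lay above both unstimulated ones (8.97 and 8.76). The other small subunit genes (Cox6a1, Cox6b1, Cox6c, Cox7a2, Cox7b, Cox7c and Cox8a) had differences from IL4 of -1.04 for Cox7c to -0.34 for Cox8a, and none passed. Cox7c was at 10.95 in IL4 replicate 3 and at 9.55 and 8.65 in the other IL4 libraries (SD 1.16). Cox7a2 had the second lowest difference of complex IV between LPS plus IFNg and no stimulus, -0.46.

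In complex III the genes that fell with LPS plus IFNg against IL4 were Uqcr11, Uqcrh and Uqcrb, which encode small accessory subunits, Uqcrh the hinge protein at cytochrome c1. Uqcr11 was at 6.96, 6.69 and 6.99 in LPS plus IFNg libraries, 8.62, 8.93 and 8.01 in IL4 libraries, and 7.97 and 7.84 in unstimulated libraries. The groups did not overlap, with the unstimulated libraries in the middle. The log2 difference from IL4 was -1.64 (SE 0.27, adjusted p = 0.00783), or 3.11-fold lower, and passed whichever library was left out. With housekeeping scaling the difference from IL4 still passed (-1.24, limma adjusted p = 0.0169), but with ribosomal protein scaling it did not (-0.16, adjusted p = 0.667). From no stimulus the unscaled log2 difference was -1.02 with LPS plus IFNg (adjusted p = 0.0946) and 0.61 with IL4 (adjusted p = 0.478) in limma. Without IL4 replicate 3 the first of these passed.

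Uqcrh was at 8.09, 8.03 and 8.61 in LPS plus IFNg libraries, 9.55, 9.40 and 9.07 in IL4 libraries, and 9.56 and 8.83 in unstimulated libraries. Uqcrb was at 8.17, 8.10 and 8.13 in LPS plus IFNg libraries, 9.39, 8.68 and 8.87 in IL4 libraries, and 8.72 in both unstimulated libraries. For both genes the LPS plus IFNg libraries were the lowest, and the IL4 and unstimulated libraries overlapped. The differences from IL4 were -1.10 for Uqcrh (SE 0.27, adjusted p = 0.0373) and -0.85 for Uqcrb (SE 0.21, adjusted p = 0.0401). That of Uqcrh did not pass without replicate 1 or 2 of LPS plus IFNg or of IL4 (up to 0.116), and that of Uqcrb did not pass without any 1 library except IL4 replicate 2 (up to 0.111).

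The genes of the catalytic and core subunits of complex III did not pass. Uqcrfs1 encodes the Rieske iron-sulfur protein and Cyc1 cytochrome c1, which carry the electrons, and Uqcrc1 and Uqcrc2 the large core proteins. Uqcrfs1 was at 7.17, 7.74 and 7.60 in LPS plus IFNg libraries, 7.08, 8.89 and 7.86 in IL4 libraries, and 7.36 and 7.56 in unstimulated libraries, so that the groups overlapped. Cyc1 had the widest spread of the 35 genes, with IL4 libraries at 7.82, 6.37 and 4.97 (SD 1.42), and its interval for LPS plus IFNg against no stimulus ran from -2.10 to 1.85. Uqcrc1 had the highest IL4 difference of complex III, with IL4 libraries at 6.22, 6.36 and 6.52 and unstimulated libraries at 5.53 and 4.97, a log2 difference of 1.11 (SE 0.53, limma adjusted p = 0.466). Uqcrc2 and the small subunit genes Uqcr10 and Uqcrq had differences from IL4 of -0.92, -0.79 and -0.66 and from no stimulus of -0.32, -0.45 and -0.27 with LPS plus IFNg, and none passed.

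Cycs, which encodes cytochrome c itself, was at 8.65, 8.82 and 8.86 in LPS plus IFNg libraries, 8.72, 7.67 and 9.25 in IL4 libraries, and 8.13 and 8.21 in unstimulated libraries. It was the only one of the 35 genes with a difference above 0 between LPS plus IFNg and IL4 (0.23), and had the highest difference between LPS plus IFNg and no stimulus (0.61, SE 0.42). Neither passed (limma adjusted p = 0.751 and 0.501).

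**Figure D3:**
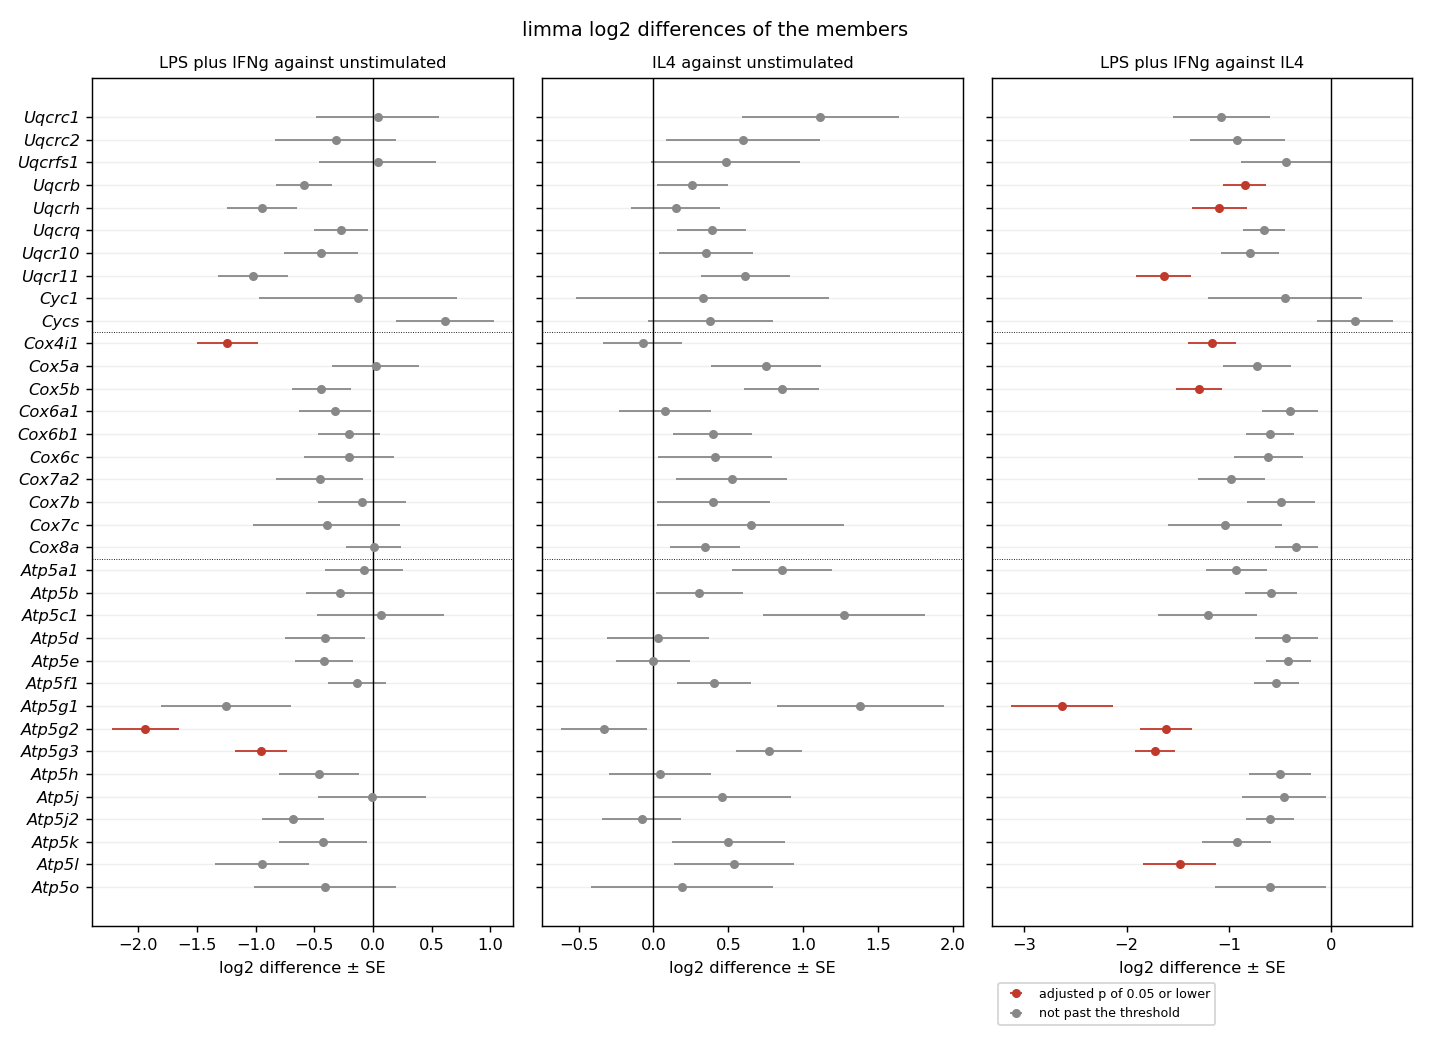
log2 differences from limma with their SE (x axis) for the 35 subunit genes (y axis) in 3 comparisons; red marks an adjusted p of 0.05 or lower, and dotted lines part complex III with cytochrome c, complex IV and ATP synthase. Against IL4, 34 of 35 points lie below 0 and those of Atp5g1, Atp5g3, Uqcr11 and Atp5g2 lie lowest; with ribosomal protein scaling 30 of 35 lie above 0.

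Between the complexes the medians were close, and their differences were not tested. For LPS plus IFNg against IL4 the median log2 difference was -0.60 over the ATP synthase genes, -0.67 over complex IV and -0.82 over complex III with cytochrome c, where the median of all genes tested was 0. Against the unstimulated libraries these LPS plus IFNg medians were -0.42, -0.27 and -0.30, beside -0.04 for all genes. For IL4 against no stimulus they were 0.40, 0.40 and 0.38, beside -0.01. The 4 ATP synthase genes that fell against IL4 all encode parts of Fo. The 5 F1 genes had a median of -0.59 there and the other 10 ATP synthase genes of -0.76, and the test of that difference was not made.

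The scaling of the libraries sets the level of all of these differences, and with ribosomal protein scaling both LPS plus IFNg medians change sign, as does the one against no stimulus with housekeeping scaling. Equal means of 11 housekeeping genes raised the median of all genes by 0.55 for LPS plus IFNg against no stimulus, by 0.40 for LPS plus IFNg against IL4 and by 0.16 for IL4 against no stimulus. The median over the 35 genes then was 0.16, -0.33 and 0.56 in those comparisons, in place of -0.39, -0.73 and 0.40. With that scaling 2.86% of the 35 genes fell against no stimulus and 11.4% against IL4, beside 2.17% and 4.35% of all genes tested. Those that fell against IL4 were Atp5g1, Atp5g2, Atp5g3 and Uqcr11, and against no stimulus it was Atp5g2. Equal means of 82 ribosomal protein genes raised the median of all genes by 1.47 and 1.48 in the LPS plus IFNg comparisons, and the 35 genes had medians of 1.07 and 0.75. Relative to the median of all genes, which no such scaling changes, the 35 genes stood at -0.35 for LPS plus IFNg against no stimulus, at -0.73 for LPS plus IFNg against IL4 and at 0.41 for IL4 against no stimulus.

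Other proteins are needed to build or control these complexes. Of 40 genes for assembly factors, accessory proteins and regulators of the complexes, 38 were in the table; against IL4, 2 rose (5.26%) and 3 fell (7.89%) with LPS plus IFNg, near the 5.91% and 6.96% of all genes tested. Against no stimulus 1 rose (2.63%) and 2 fell (5.26%), beside 3.72% and 4.25% of all genes. With IL4 none passed in limma, where 0.514% of all genes rose and 0.793% fell. At an unadjusted p under 0.05, 1 of the 38 was higher with IL4 and none lower (5.53% and 6.57% of all genes). Atpif1, which encodes the inhibitor that stops ATP synthase from running backwards, was at 8.04, 7.58 and 8.05 in LPS plus IFNg libraries, 9.64, 9.10 and 9.82 in IL4 libraries, and 9.60 and 9.76 in unstimulated libraries. Every LPS plus IFNg library was over 1 unit under the others. Its log2 difference was -1.63 against IL4 (SE 0.24, adjusted p = 0.00522) and -1.79 against no stimulus (SE 0.27, adjusted p = 0.00824). With ribosomal protein scaling these were -0.15 and -0.32 and did not pass (adjusted p = 0.659 and 0.383). The difference from no stimulus did not pass without either unstimulated library (adjusted p up to 0.0771) or with housekeeping scaling (0.0511).

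Ndufa4, named for complex I but now counted with complex IV, was at 10.61, 10.54 and 10.81 in LPS plus IFNg libraries, 11.74, 12.40 and 11.74 in IL4 libraries, and 11.69 and 12.02 in unstimulated libraries. It fell by 1.31 against IL4 and by 1.20 against no stimulus (limma adjusted p = 0.0106 and 0.0329), but with ribosomal protein scaling both differences lay above 0 (0.17 and 0.26). The difference from no stimulus did not pass without any 1 LPS plus IFNg or unstimulated library (up to 0.199). The third that fell against IL4 was 2010107E04Rik, now Atp5mpl, a small proteolipid of ATP synthase (-1.16, limma adjusted p = 0.0337; 0.32 with ribosomal protein scaling). The genes that rose against IL4 encode assembly factors of complex IV. Cox18 was at 5.23, 5.39 and 3.96 in LPS plus IFNg libraries and listed at 0 in all IL4 and unstimulated libraries. 6330578E17Rik, now Coa5, was at 8.55, 8.87 and 8.54 in LPS plus IFNg libraries, 7.10, 6.27 and 7.75 in IL4 libraries, and 7.19 and 6.61 in unstimulated libraries, with a difference from IL4 of 1.62 (SE 0.39, limma adjusted p = 0.0348). The calls of 2010107E04Rik and 6330578E17Rik against IL4 were each lost without 6 of the 8 libraries in turn (adjusted p up to 0.0945 and 0.111). Cox17, a copper chaperone for complex IV, was at 8.82, 9.22 and 8.84 in LPS plus IFNg libraries, 8.80, 8.35 and 9.18 in IL4 libraries, and 8.05 and 7.67 in unstimulated libraries. Every stimulated library lay above both unstimulated ones, but the differences of 1.10 with LPS plus IFNg and 0.92 with IL4 did not pass (limma adjusted p = 0.0666 and 0.241). Cox7a2l, a supercomplex factor, did not pass either (-0.54 with LPS plus IFNg and -0.25 with IL4 against no stimulus). Of 9 isoform genes of other tissues, 8 were in the table, and Cox6b2, Cox7b2, Cox8b, Cox8c and Cyct were listed at 0 in every library.

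Among 10 regulators of mitochondrial gene expression, Ppargc1a was listed at 0 in every library. Against no stimulus, 1 of the other 9 rose with IL4 (11.1%, beside 0.514% of all genes tested). With LPS plus IFNg 1 fell there (11.1%, beside 4.25%). Between LPS plus IFNg and IL4, 1 rose and 1 fell (11.1% each, beside 5.91% and 6.96%). Ppargc1b, a coactivator of mitochondrial genes, was at 8.63, 7.88 and 9.34 in IL4 libraries and 5.84 and 4.60 in unstimulated libraries (log2 difference 3.39, SE 0.57, limma adjusted p = 0.0434). LPS plus IFNg libraries stood at 7.82, 7.64 and 6.75, a difference from no stimulus of 2.18 that did not pass (adjusted p = 0.0655). Tfb2m, a transcription factor of mitochondrial DNA, was at 6.41, 6.43 and 6.11 in LPS plus IFNg libraries, 7.93, 7.62 and 7.92 in IL4 libraries, and 7.27 and 7.67 in unstimulated libraries. It fell against IL4 (-1.51, adjusted p = 0.00623) and against no stimulus (-1.15, adjusted p = 0.0398), and with ribosomal protein scaling the differences were -0.03 and 0.31. Esrra rose with LPS plus IFNg against IL4 (1.16, adjusted p = 0.0269). The calls of Ppargc1b, and of Tfb2m against no stimulus, did not pass without 7 of the 8 libraries in turn (adjusted p up to 0.212 and 0.123), and that of Esrra not without any 1 LPS plus IFNg library or IL4 replicate 2 or 3 (up to 0.0873). The other 6 did not pass in any of the 3 comparisons. Their log2 differences with LPS plus IFNg against no stimulus were 0.03 for Nrf1, -0.31 for Gabpa, 0.23 for Gabpb1, 0.32 for Tfam, -0.44 for Pprc1 and 2.14 for Polrmt, which was listed at 0 in 1 library of each of these groups.

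The rest of the respiratory chain was set beside these genes. Against IL4, 8 of 36 complex I genes fell with LPS plus IFNg and none rose, with a median of -0.71: Ndufa5, Ndufa8, Ndufa13, Ndufab1, Ndufb3, Ndufb7, Ndufb8 and Ndufv2 (22.2%, beside 6.96% of all genes tested). With ribosomal protein scaling 9 of 36 rose and none fell, a smaller share than the 49.1% of all genes that rose, and of the 8 named only Ndufa8 and Ndufb8 stayed below 0. Against no stimulus their median was -0.54 with LPS plus IFNg and 0.36 with IL4. With LPS plus IFNg 1 of 36, Ndufb7, fell there (2.78%, under the 4.25% of all genes tested). Its limma adjusted p was 0.0106, and it lay 0.29 above 0 with ribosomal protein scaling. Of 4 complex II genes, Sdha, for the flavoprotein, fell against IL4 (-1.14, but 0.34 with ribosomal protein scaling), and none passed against no stimulus. Of 76 mitochondrial ribosomal protein genes, 2 (Mrpl12 and Mrps25) fell with LPS plus IFNg against IL4 (2.63%, under the 6.96% of all genes; Mrpl12 lay at 0.28 with ribosomal protein scaling), with a median of -0.62, and none passed against no stimulus, with a median of -0.12. Cytosolic ribosomal protein genes fell much further: 66 of 82 against IL4 (80.5%, beside 6.96% of all genes, median -1.52) and 57 of 82 against no stimulus (69.5%, beside 4.25%, median -1.60). With housekeeping scaling 53 (64.6%, beside 4.35%) and 28 (34.1%, beside 2.17%) fell. Ribosomal protein scaling sets the mean of these same genes equal, and with it 5 (6.10%, beside 2.09%) and 2 (2.44%, beside 1.36%) fell.

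**Figure D4:**
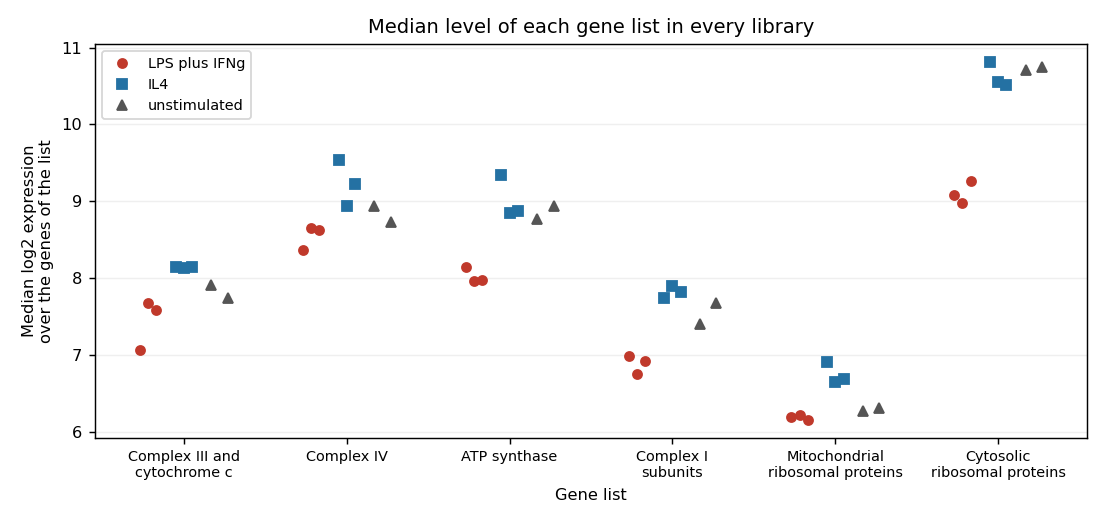
Median log2 expression (y axis) over the genes of each list (x axis) in every LPS plus IFNg, IL4 and unstimulated library; each symbol is 1 library. Before any other scaling, the LPS plus IFNg medians of ATP synthase (7.96 to 8.14) lie under those of IL4 (8.85 to 9.34) and of the unstimulated libraries (8.77 and 8.94), and those of cytosolic ribosomal proteins lie further under.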

How the data were processed

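RNA of 3 LPS plus IFNg, 3 IL4 and 2 unstimulated macrophage samples was captured by oligo-dT, reverse transcribed with barcoded primers, pooled by Actb level and amplified by PCR into strand-specific 3' end libraries, per the labels' protocols; no molecular identifiers are described. The submitters' processing notes name TopHat and mm9; not given in the sources used here: versions, the counting tool, and the handling of multi-mapped reads and of zeros. Many subunit genes have processed pseudogenes, so their levels are uncertain. The authors deposited log2 values, quantile normalised per the file name, in 20259 rows with a RefSeq annotation; 1 row had no symbol and was left out, and columns were matched to samples by barcode. Quantile normalisation can hide a difference in total RNA, and depth is unknown.

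Genes with 1 value in every library (6643) were left out, and 13615 were fitted with limma 3.58.1 in R 4.3.3, with a mean per group over all 8 libraries (5 residual degrees of freedom) and an intensity trend in the prior variance. Tests were two-sided, p-values were adjusted by Benjamini and Hochberg over all genes tested, and "rose" and "fell" mean an adjusted p of 0.05 or lower. Scaling alternatives shifted each library to equal means of 11 housekeeping or 82 ribosomal protein genes. The fit was tested on simulated data with independent noise and with changes set only in genes of higher mean. Those data held no shared shift of housekeeping or ribosomal protein genes, so that test does not bear on the scaling. The subunit genes and lists were chosen with earlier results of these data known. Genes were named if they passed, if they had 1 of the 2 highest or 2 lowest differences of their complex in a comparison, or if they belonged to a chosen set (the c subunit genes, Cycs, Cyc1, Uqcrfs1, Cox4i1, Atp5a1, Atp5b, Atpif1, Ndufa4, Cox17, Cox7a2l and the regulators); cytosolic ribosomal protein genes are given as counts only. Promoter windows came from RefSeq on GRCm38.p6, and 27 of 35 genes had one.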

Additional observations from a re-analysis of the deposited data

How the results depend on the processing

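With IL4 against no stimulus no subunit gene passed under any alternative, and the median over the 35 genes stayed between 0.34 and 0.56. Few of all genes passed in some of these settings. With only the 2 groups compared 7 of 12988 were higher and 0 lower. With the replicate block 7 of 13615 were higher and 1 lower, and at an adjusted p of 0.01 these were 8 and 2. For LPS plus IFNg against no stimulus, the count of 3 lower genes became 1 with no intensity trend, with only the 2 groups compared, with housekeeping scaling, with the replicate block and at an adjusted p of 0.01, Atp5g2 in each case. Of all genes, 579 were lower in the main fit, and 421, 557, 295, 256 and 217 in those settings. The genes tested were 13615, but 13279 with only the 2 groups compared. Without LPS plus IFNg replicate 3 and IL4 replicate 1, 439 of 13465 and 491 of 13510 were lower. For LPS plus IFNg against IL4 the count of 9 became 5 with no intensity trend and 4 with housekeeping scaling or at an adjusted p of 0.01. Of all 13615 genes 948 were lower there in the main fit, and 776, 592 and 379 in those settings. Ribosomal protein scaling gave 0 lower and 20 higher against no stimulus (57.1%, beside 39.4% of all genes higher) and 0 lower and 14 higher against IL4 (40.0%, beside 49.1%), with medians of 1.07 and 0.75; housekeeping scaling gave medians of 0.16 and -0.33. Those scalings add a constant to each library, so every gene in it shifts by the same amount. The cause of the changed calls was not tested, for these or for the other settings. Leaving out 1 library gave 0 to 3 lower genes and medians of -0.46 to -0.30 against no stimulus, and 5 to 9 lower genes and medians of -0.83 to -0.70 against IL4.

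With ribosomal protein scaling the difference of these genes turned: Cox4i1 (0.22) and Atp5g3 (0.51) against no stimulus, and Uqcrb (0.63), Uqcrh (0.38), Cox4i1 (0.31) and Cox5b (0.18) against IL4, with Ndufa4 (0.26 and 0.17), Tfb2m (0.31) and 2010107E04Rik (0.32), and, of other lists, Sdha (0.34), Mrpl12 (0.28), Ndufb7 (0.29 against no stimulus, 0.33 against IL4) and 5 more complex I genes. No pairing by replicate number was seen: the deviations of same-numbered libraries correlated at -0.08 to 0.07 over 7283 genes. Those of differently numbered libraries correlated at -0.07 to 0.08. Deviations from means of so few libraries depend on each other, so this cannot exclude a weak pairing. With the replicate number as a block 7 subunit genes fell against IL4, beside 691 of the 13615 genes tested. A filter on low genes and a damping of low values left the counts within 1.5 times. Precision is limited by 2 unstimulated libraries and unknown depth. Alternatives for assembly factors and regulators were added after the data were examined.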
